A study of Mus musculus with 425 samples.

Results

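The cauda epididymis mRNA libraries of the Stra8 line are 8 of the 425 samples of the series. They were taken by their column labels in the authors' deposited table of tissue mRNA, 4 labelled homozygous (cKO) and 4 labelled heterozygous (control). The cKO mice carried Dgcr8 fl/fl; Stra8-iCre and the controls Dgcr8 +/fl; Stra8-iCre, and the table's header calls the heterozygotes siblings. Both groups therefore carry the Cre and at least 1 floxed allele, and the controls are heterozygous rather than wild type. Stra8-iCre is driven by a promoter of male germ cells, so by design the epithelium, muscle and stroma of the duct keep Dgcr8 in both groups. The labels give no age or strain, and whether each library is a different animal is not stated in the labels or the table's header. The p-values therefore measure how far these libraries spread, and part of that spread may be technical. Equal-numbered cKO and control libraries deviated together from their group means, and so were treated as pairs.

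Dgcr8 binds the stem of primary miRNA transcripts and brings them to the nuclease Drosha, which cuts out the hairpin that Dicer later trims to a miRNA. The epididymis is a single coiled duct in which sperm mature on their way from the caput (head) to the cauda (tail), where they are stored. Its principal cells secrete defensins, protease inhibitors and sperm-coating proteins in a segment-specific order, its clear cells acidify the lumen with a vacuolar proton pump, and the cauda lumen holds the stored sperm.

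Values are TPM (the authors' normalised transcript abundance, scaled to the same total per library), and differences are cKO minus control in log2(TPM + 1). At low TPM the added 1 shrinks these differences. Of 23845 genes in the table, 11527 had at least 1 TPM in at least 4 of the 8 libraries and were kept for testing with limma. TPM keeps no sequencing depth, so depth is unknown; each library had 10536 to 12142 genes at 1 TPM or more, and its most abundant genes, 50 per library, took 36.2% to 45.8% of all TPM. Control 4 lay highest on the first principal component, which held 47.1% of the variance, at 53.5 against -33.1 to 17.9 in the others. On this component the cKO library lay below the equal-numbered control in every pair. The cKO library also had fewer genes at 1 TPM or more in every pair, though barely in pair 1 (11575 against 11580). The cause of these differences was not tested.

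The segment label held up against segment markers. Genes typical of the caput summed to 5257, 5089, 5769 and 5748 TPM in cKO cauda and to 6304, 6118, 7176 and 7751 TPM in control cauda, against 134986 to 170678 TPM in the caput libraries of the same line. Cuzd1 and Ces5a made up most of that sum in cauda, and both were higher in cauda than in caput: Cuzd1 was at 2036 to 3092 TPM in cauda and 508 to 907 TPM in caput, and Ces5a at 2321 to 3461 TPM in cauda and 50.1 to 389 TPM in caput. Distal genes, mostly Crisp1, summed to 4723, 3833, 3973 and 4365 TPM in cKO cauda and to 7659, 6769, 5587 and 7552 TPM in control cauda, against 528 to 601 TPM in caput. In cauda both sums were lower in cKO than in control, with no overlap between the groups.

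Dgcr8 (chr16:18253948-18289251, GRCm38.p6) was measured at 1.97, 0.86, 1 and 1.30 TPM in cKO cauda, against 2.29, 1.52, 1.93 and 3.16 TPM in control cauda. The groups overlapped, and the cKO library was the lower of each equal-numbered pair. The difference was -0.50 (SE 0.212; limma adjusted p = 0.385), and adjusted p was 0.0863 with the replicate number as a block. The Cre acts in germ cells, so whole tissue is a weak check of the deletion. In bulk tissue, fewer cells of a type and less RNA per cell cannot be told apart, here and in every result that follows.

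No gene passed an adjusted p of 0.05 without the pairing (0 of 11527, 0%), while 1461 genes had an unadjusted p under 0.05, 191 higher (1.66%) and 1270 lower (11%) in cKO. With the replicate number as a block, limma called 295 genes (2.56%), of which 44 were higher (0.382%) and 251 lower (2.18%). The balance towards lower genes moved with the scaling. The median difference of all genes kept was -0.15 in TPM as deposited and -0.0003 after median-of-ratios scaling, which left 38 calls with the block, 31 higher and 7 lower, 36 of them among the 295. The count also moved with the pairs: the blocked fit called 0 genes without pair 1, 501 without pair 2, 4 without pair 3 and 28 without pair 4. The shares called with the block, 2.18% lower and 0.382% higher, are the background for every count of called list members. Below, "called" means adjusted p under 0.05 with the replicate block, and a call that held after median-of-ratios scaling is named as such.

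**Figure D1:**
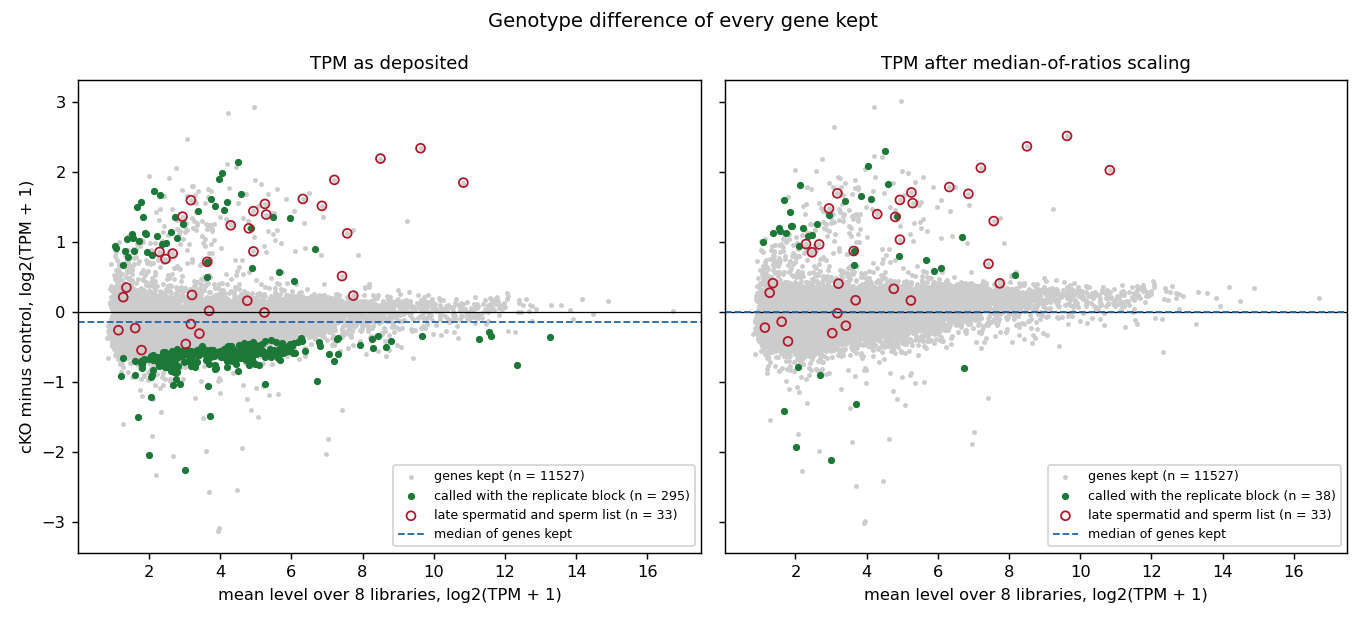
Each point is a gene kept (n = 11527): its mean level over the 8 libraries on the x axis and the cKO minus control difference on the y axis, both on the log2(TPM + 1) scale, for TPM as deposited (left) and after median-of-ratios scaling (right). Green points were called with the replicate block (295 on the left, 38 on the right), red rings mark the 33 kept genes of the late spermatid list, and the dashed line is the median of all genes kept, at -0.15 on the left and -0.0003 on the right.

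Most transcripts of late spermatids and sperm had positive differences in cKO cauda, and 1 of them was called. Of 50 such genes in the table, 33 were kept; 26 had a positive difference and 7 a negative one, the median was 0.84 (0.97 after median-of-ratios scaling) against -0.15 for all genes kept, and 16 of the 33 were higher in cKO in all 4 pairs, against 4.72% of all genes kept. The list summed to 7383, 3087, 9976 and 4877 TPM in cKO cauda, against 2087, 1869, 3728 and 841 TPM in control cauda. The sum was higher in cKO in each pair, but the groups overlapped, since cKO 2 lay below control 3. Without pair 4, which held the lowest control, the median was 0.62, and with each pair left out in turn it ranged over 0.62 to 1.08. At an unadjusted p under 0.05, 14 genes were higher and 1 lower; with the block 1 gene, Pgk2, was called.

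The nuclear proteins that pack sperm DNA showed the widest differences of the list. Protamine 1 (Prm1, chr16:10796332-10796823) was measured at 1521, 488, 2394 and 879 TPM in cKO cauda, against 233, 254, 469 and 84.9 TPM in control cauda. The groups did not overlap, although cKO 2 came close to control 3. The difference was 2.34 (SE 0.654; limma adjusted p = 0.350, and 0.0781 with the block). Protamine 2 (Prm2, chr16:10791377-10792105), the partner of Prm1 in sperm chromatin, was measured at 3146, 1529, 4374 and 2108 TPM in cKO cauda, against 805, 739, 1589 and 278 TPM in control cauda. Its lowest cKO library lay just below the highest control, and the difference was 1.85 (SE 0.566; adjusted p = 0.350, and 0.0733 with the block). Tnp2 and Tnp1, the transition proteins that replace histones before the protamines do, had the same order of libraries as Prm1 within the cKO group. Tnp2 (chr16:10787935-10788655) was measured at 739, 206, 975 and 468 TPM in cKO cauda, against 114, 118, 222 and 52.1 TPM in control cauda. Tnp1 (chr1:73015074-73015899) was measured at 253, 79.7, 439 and 148 TPM in cKO cauda, against 43.1, 54.2, 136 and 20.5 TPM in control cauda. Neither passed the threshold: the differences were 2.19 (SE 0.586) for Tnp2 and 1.89 (SE 0.691) for Tnp1, with adjusted p of 0.0827 and 0.0890 with the block.

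The promoters of Prm1, Prm2 and Tnp2, which lie within 1 cluster on chromosome 16 with Prm3 between Prm2 and Tnp2, are shown. All of these neighbours had positive differences, and none was called. Each promoter is the RefSeq sequence of GRCm38.p6, minus strand, from 250 bases before to 50 after the gene's start. Capitals mark the match to a TATA box core (TATAA, or TTATA on the other strand).
Prm1, chr16:10796774-10797073: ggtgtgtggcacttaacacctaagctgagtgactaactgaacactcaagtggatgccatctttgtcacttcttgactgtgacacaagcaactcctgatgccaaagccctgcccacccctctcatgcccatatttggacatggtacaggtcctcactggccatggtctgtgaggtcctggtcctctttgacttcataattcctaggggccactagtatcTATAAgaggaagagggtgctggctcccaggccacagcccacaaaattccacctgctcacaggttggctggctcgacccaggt
Prm2, chr16:10792056-10792355: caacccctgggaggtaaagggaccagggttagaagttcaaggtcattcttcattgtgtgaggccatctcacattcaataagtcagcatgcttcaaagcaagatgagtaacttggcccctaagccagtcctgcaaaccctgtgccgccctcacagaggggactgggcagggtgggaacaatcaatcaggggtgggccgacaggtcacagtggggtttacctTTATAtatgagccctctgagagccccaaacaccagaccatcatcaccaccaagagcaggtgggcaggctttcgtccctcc
Tnp2, chr16:10788606-10788905: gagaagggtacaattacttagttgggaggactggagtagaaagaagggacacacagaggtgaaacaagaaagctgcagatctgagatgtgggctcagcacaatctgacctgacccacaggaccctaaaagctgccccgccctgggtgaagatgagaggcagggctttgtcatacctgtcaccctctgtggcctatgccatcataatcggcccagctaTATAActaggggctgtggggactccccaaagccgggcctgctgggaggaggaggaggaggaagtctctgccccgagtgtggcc
Each holds 1 match, first base 219, 221 and 218 of the 300 shown. Such a match was found in 8 of the 31 genes called higher that have a promoter in the table (25.8%), in 30 of the 192 called lower (15.6%), in 16.2% of the 9209 genes kept and in 28% of all 27025 RefSeq genes of the table. A match describes the letters only.

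Genes of sperm metabolism and of the flagellum were less uniform. Pgk2 (chr17:40207018-40208609), the germ cell phosphoglycerate kinase, was measured at 17.5, 9.33, 20.1 and 10.4 TPM in cKO cauda, against 10.7, 6.45, 12.6 and 4.35 TPM in control cauda. Its groups overlapped, but every cKO library was above the control of its pair, and Pgk2 rose with the block (0.72, block SE 0.129; limma adjusted p = 0.0437), also after scaling (0.0433). Gapdhs, the sperm form of glyceraldehyde phosphate dehydrogenase, had a difference of 1.61, Oaz3, an antizyme of late spermatids, of 1.12, Akap4, of the fibrous sheath, of 1.36, and Tssk6, a testis-specific kinase, of 1.24; none was called. Gsg1, a germ cell gene on chromosome 6, was measured at 219, 107, 194 and 142 TPM in cKO cauda, against 65.1, 58.4, 114 and 20.95 TPM in control cauda, a difference of 1.52 (SE 0.470; adjusted p = 0.0972 with the block). Odf1, of the outer dense fibres, and Smcp, of the mitochondrial capsule, did not separate the groups: Odf1 was higher in cKO in 2 of 4 pairs (0.24, SE 0.311) and Smcp in 3 of 4 (0.51, SE 0.399). Odf1 turned to -0.06 when control 4 was left out. Cabyr, a fibrous sheath protein, was lower in cKO in all 4 pairs (-0.45, SE 0.177) and was not called. Markers of earlier germ cells and of Sertoli or Leydig cells gave 6 kept genes of 25, all with a negative difference and none called.

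**Figure D2:**
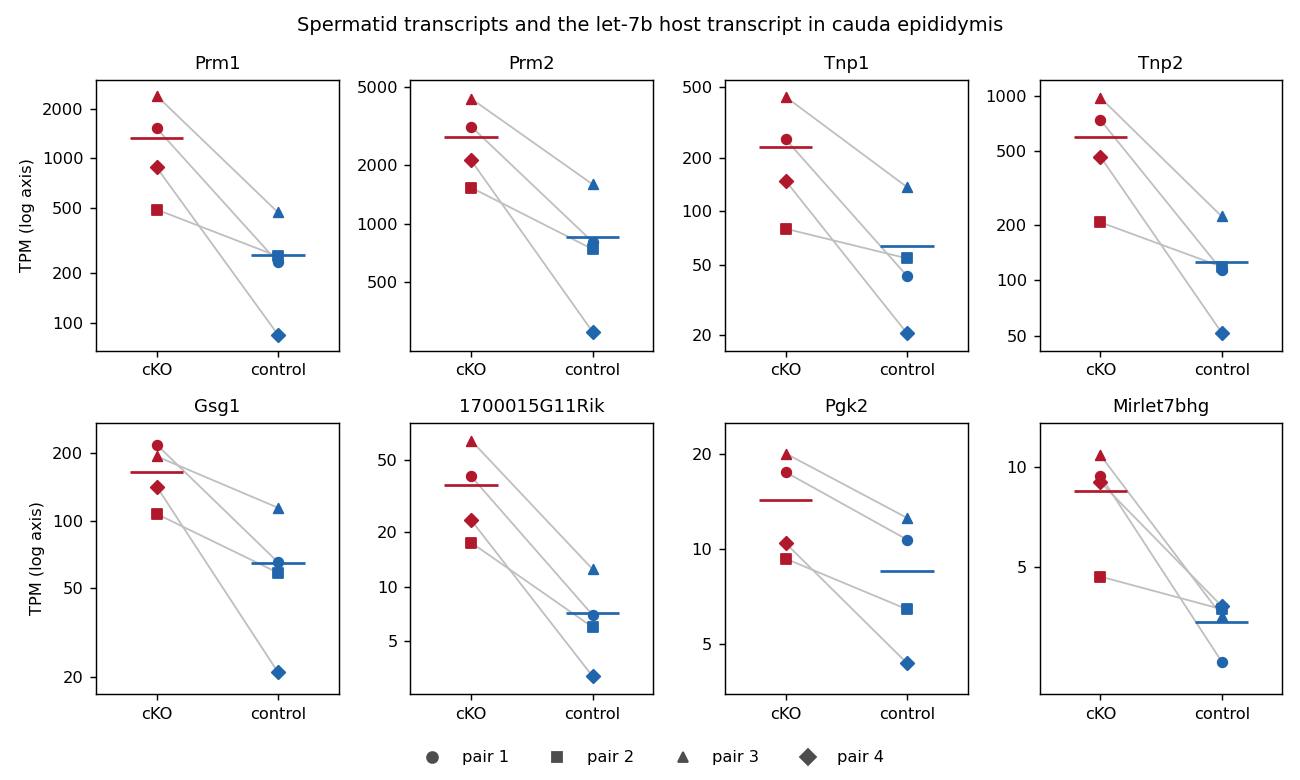
TPM on a log axis in each cauda library for the spermatid transcripts Prm1, Prm2, Tnp1, Tnp2, Gsg1 and Pgk2, the gene 1700015G11Rik and the let-7b host Mirlet7bhg, cKO left and control right. Grey lines join equal-numbered libraries and bars are means. Prm1, 1700015G11Rik and Mirlet7bhg have no overlap between the groups, while Pgk2 overlaps but is higher in cKO in all 4 pairs.

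The 8 genes with the largest called increase were 1700015G11Rik (2.14), Snord17 (1.99), 1110017D15Rik (1.90), Defb33 (1.73), Rn4.5s (1.68), BC061195 (1.67), 1700024P04Rik (1.62) and 1700080E11Rik (1.58). 1700015G11Rik (chr7:52011680-52015716) was measured at 40.4, 17.5, 63.6 and 23.2 TPM in cKO cauda, against 6.98, 5.98, 12.5 and 3.21 TPM in control cauda. The groups did not overlap, cKO 3 and control 3 were the highest of their groups, as for Prm1, and the gene rose with the block (limma adjusted p = 0.00772; 0.0112 after scaling). Defb33, a beta-defensin, was measured at 7.38, 2.23, 11.7 and 2.11 TPM in cKO cauda, against 0.93, 0.43, 2.23 and 0 TPM in control cauda, and rose with the block (adjusted p = 0.00772; 0.0115 after scaling), with cKO 2 and control 3 at the same level. Iqcf4, of a family of calmodulin-binding IQ proteins, was measured at 30.6, 15.6, 34.9 and 15.1 TPM in cKO cauda, against 9.58, 6.82, 14.7 and 3.07 TPM in control cauda, with no overlap, and rose by 1.46 (adjusted p = 0.0109; 0.0112 after scaling). Its neighbour Iqcf1 rose by 1.45 (adjusted p = 0.0315; 0.0208 after scaling). The genes with the smallest unadjusted p among higher ones, 4930469G21Rik, Cstl1 (a cystatin-like gene, 1.92), Gm5901 (1.95), Mirlet7bhg, 1700015G11Rik and Slfnl1 (2.07), did not overlap between the groups, which 0.599% of all genes kept did on the higher side. Since they were picked by p in the same libraries, that separation follows largely from the choice and is no separate support. Iqcf1 and Iqcf4 were chosen for the text after their values were seen.

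The higher genes were also set against the caput libraries of the line, which share no library with cauda. Whether they share animals with cauda is not stated in the labels. This comparison used TPM as deposited only. Of the 44 genes called higher in cauda, 33 (75%) were higher in caput cKO (n = 3) than in caput control (n = 3) with no overlap, and 1 (2.27%) was lower; over all genes kept in cauda these shares were 18% and 1.33%. Of the 251 called lower in cauda, 1 (0.398%) was lower in caput with no overlap and 83 (33.1%) were higher. The late spermatid list summed to 3468, 5187 and 4171 TPM in caput cKO, against 948, 1125 and 1198 TPM in caput control, with no overlap. In cauda, control 4 had the lowest sum of all, and the part that sperm content took in the higher genes was not tested.

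**Figure D3:**
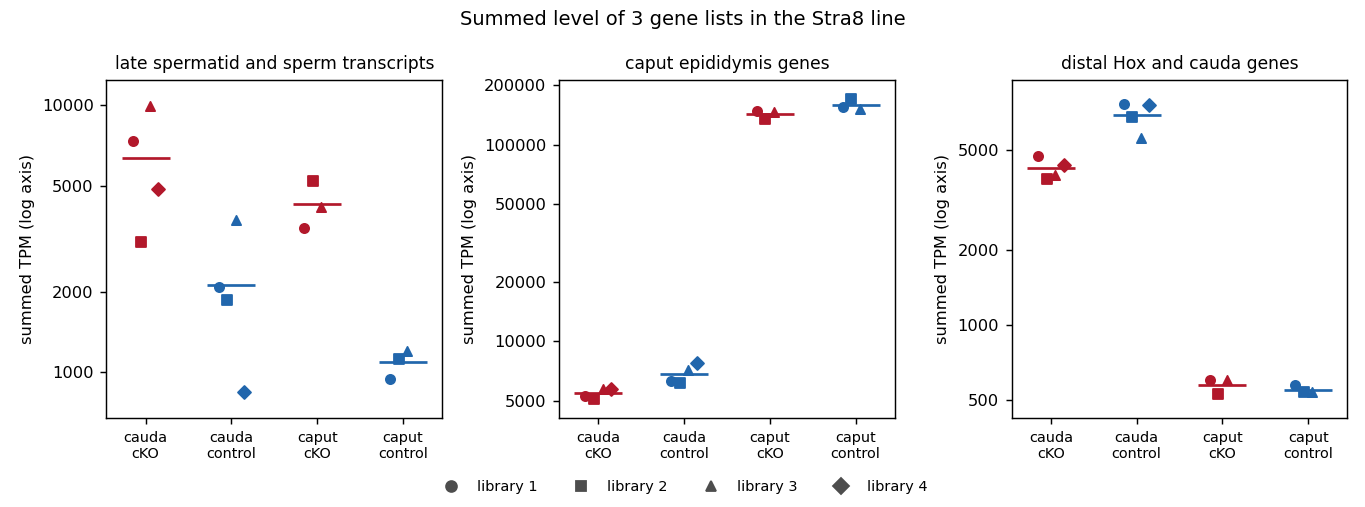
Summed TPM (log axis) of the late spermatid list, of caput genes and of distal genes in each library of the Stra8 line, cKO left of control within cauda and within caput; bars are means and symbols give the library number. Spermatid transcripts lie at 3087 to 9976 TPM in cauda cKO against 841 to 3728 TPM in cauda control, and at 3468 to 5187 TPM in caput cKO against 948 to 1198 TPM in caput control, while the segment lists separate cauda from caput.

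The 8 genes with the largest called decrease were Defb15 (-2.25), Defb45 (-2.04), Defb30 (-1.49), Lypd8 (-1.48), Ackr1 (-1.21), Glb1l3 (-1.05), Plvap (-1.04) and Rnase9 (-1.03), among them the defensins and a secreted ribonuclease of the epididymal epithelium. The lower genes of smallest unadjusted p were Crisp1, Spag11b, Cst11, Gm14295 (-0.92), Ucn2 (-0.91) and Ackr1, none of them called without the block. Crisp1 (chr17:40293758-40319207), an androgen-dependent cysteine-rich protein that coats sperm, was measured at 4290, 3503, 3626 and 3879 TPM in cKO cauda, against 7221, 6465, 5158 and 7043 TPM in control cauda. Every cKO library lay below every control, as for 7.3% of all genes kept on the lower side. Since Crisp1 is among the lower genes of smallest p, that separation is no separate support. Crisp1 fell by 0.75 on the log2 scale with the block (block SE 0.0706; limma adjusted p = 0.00772, and 0.295 without the block); after scaling the difference was -0.57 and the call was lost (adjusted p = 0.0773), while it held after quantile normalization (0.0143). Cuzd1 (chr7:131308554-131322292), a secreted protein with CUB and zona pellucida-like domains, was measured at 2036, 2123, 2191 and 2165 TPM in cKO cauda, against 2464, 2776, 2837 and 3092 TPM in control cauda, with no overlap. It fell by 0.39 (block adjusted p = 0.0377; 0.161 after scaling). Spink8, a Kazal-type protease inhibitor and among the most abundant mRNAs of the tissue, was measured at 7462, 8879, 9111 and 8822 TPM in cKO cauda, against 9239, 12134, 10192 and 12340 TPM in control cauda. Its highest cKO library was just under its lowest control, and it fell by 0.35 (block adjusted p = 0.0437; 0.277 after scaling). Ces5a, a secreted carboxylesterase at 2321 to 2862 TPM in cKO cauda and 2322 to 3461 TPM in control cauda, was not called, and its difference was -0.17 as deposited and 0.01 after scaling.

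Several genes with far higher levels in caput fell in cKO at low cauda levels. Gpx5 (chr13:21286429-21292727), the secreted glutathione peroxidase of the caput, was measured at 59.2, 97.9, 68.0 and 46.9 TPM in cKO cauda, against 120, 244, 125 and 78.6 TPM in control cauda, and at 21136 to 33514 TPM in caput. It was lower in cKO in each pair and fell by 0.98 with the block (limma adjusted p = 0.00877; 0.0464 after scaling), although cKO 2 lay above control 4. Defb15 (chr8:21929813-21932710), a beta-defensin, was measured at 0.62, 2.67, 2.15 and 0.79 TPM in cKO cauda, against 6.32, 26.8, 9.53 and 7.11 TPM in control cauda, and at 350 to 3396 TPM in caput. The groups did not overlap, and Defb15 fell by 2.25 (adjusted p = 0.00663; 0.0131 after scaling). Defb45 was measured at 0, 1.54, 0.54 and 0 TPM in cKO cauda, against 3.76, 11.5, 4.30 and 2.56 TPM in control cauda, and fell by 2.04 (adjusted p = 0.00357; 0.00969 after scaling). Defb30 was measured at 0.27, 0.29, 0.30 and 1.92 TPM in cKO cauda, against 1.96, 3.22, 3.05 and 6.71 TPM in control cauda, and fell by 1.49 (adjusted p = 0.00772; 0.0131 after scaling). For both defensins every cKO library was below every control, by a narrow margin for Defb30. Lypd8, a Ly6-domain protein, was measured at 6.34, 9.81, 4.15 and 2.00 TPM in cKO cauda, against 13.6, 40.0, 13.4 and 7.58 TPM in control cauda, and fell by 1.48 (adjusted p = 0.00871; 0.0131 after scaling), each cKO library below its pair with cKO 2 above control 4. The 7 genes called lower both as deposited and after scaling were Defb15, Defb45, Defb30, Lypd8, Gpx5, Plvap and Gm14295.

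Not every caput gene at a low cauda level was called. Spag11b, a defensin-like sperm-binding gene, was measured at 3.22, 0.76, 1.20 and 1.5 TPM in cKO cauda, against 9.91, 61.4, 20.3 and 15.4 TPM in control cauda, and at 15218 to 23110 TPM in caput. The groups did not overlap, but the control libraries spread widely (-3.13, SE 0.5002; limma adjusted p = 0.323, and 0.0842 with the block). Cst11, a cystatin, was measured at 0.74, 0, 0 and 0 TPM in cKO cauda, against 1.41, 3.39, 4.08 and 1.69 TPM in control cauda (-1.59, SE 0.283; adjusted p = 0.0538 with the block). Defb20 (-1.49), Lcn5 (-2.54) and Lcn8 (-1.43), with Lcn5 and Lcn8 being lipocalins, had unadjusted p under 0.05 and were not called. Of 27 caput genes in the table, 19 were kept; Gpx5, Cuzd1 and Rnase9 were called lower and none higher, although Cuzd1 was more abundant in cauda than in caput and Rnase9, at 1.57 to 635 TPM in caput, overlapped between the segments. Of the 19, 11 were lower in all 4 pairs against 31.7% of all genes kept, and the median was -0.39 (-0.27 after scaling). Of the 31 kept genes on the list of beta-defensins and Spag11 genes, 3 were called lower, Defb15, Defb45 and Defb30, and the list does not hold Defb33, the beta-defensin called higher. The list's median was -0.21 (-0.04 after scaling), with 11 positive. Of 36 kept protease inhibitors 1, Spink8, was called lower (median -0.25; -0.07 after scaling). How much caput tissue each cauda library held was not tested.

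The promoters of Defb15 and Crisp1 are shown because both genes were called lower and secretion by this epithelium depends on androgens; capitals mark AGAACA, or TGTTCT on the other strand, the core hexamer of androgen receptor binding sites, in RefSeq sequence of GRCm38.p6, minus strand.
Defb15, chr8:21932661-21932960: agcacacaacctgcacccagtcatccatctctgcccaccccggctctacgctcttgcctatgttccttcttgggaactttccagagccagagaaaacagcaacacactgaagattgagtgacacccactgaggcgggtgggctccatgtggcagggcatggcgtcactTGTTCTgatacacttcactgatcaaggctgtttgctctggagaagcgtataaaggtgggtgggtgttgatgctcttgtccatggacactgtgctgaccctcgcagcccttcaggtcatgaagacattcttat
Crisp1, chr17:40319158-40319457: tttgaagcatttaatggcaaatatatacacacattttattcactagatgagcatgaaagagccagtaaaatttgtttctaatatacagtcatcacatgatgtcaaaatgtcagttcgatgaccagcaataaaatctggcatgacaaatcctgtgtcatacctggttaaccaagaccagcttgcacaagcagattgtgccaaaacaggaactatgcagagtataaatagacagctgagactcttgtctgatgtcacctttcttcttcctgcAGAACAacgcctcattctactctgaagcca
Each holds 1 match, and the promoter of Gpx5 holds 0. The window has 250 bases before the gene's start. The match begins at base 169 of the 300 shown for Defb15, before the start, and at base 271 for Crisp1, after the start. The hexamer was found in 42 of the 192 genes called lower that have a promoter in the table (21.9%), in 1 of the 31 called higher (3.23%), in 15% of the 9209 genes kept and in 21.3% of all 27025 RefSeq genes. A match is no evidence of binding. The 21 kept genes of androgen and steroid response had a median of -0.18 (-0.06 after scaling), and 1 of them, the water and glycerol channel Aqp9, was called lower (-0.37, adjusted p = 0.0496; 0.213 after scaling).

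Some proton pump subunits were called lower as deposited, and none after scaling. Of 20 kept genes of clear cells and the vacuolar ATPase, 7 had an unadjusted p under 0.05, all lower, against 11% of all genes kept on that side. With the block 4 were called lower, against 2.18% of all genes: Atp6ap2, Atp6v1g3, Atp6v1h and Atp6v1d. Atp6ap2, the accessory subunit also known as the prorenin receptor, was measured at 9.16, 10.1, 10.3 and 9.42 TPM in cKO cauda, against 16.7, 19.4, 13.7 and 18.8 TPM in control cauda, with no overlap, and fell by 0.75 (limma block adjusted p = 0.0422). Atp6v1g3, a subunit of the clear cell pump, was measured at 7.67, 7.47, 9.77 and 9.70 TPM in cKO cauda, against 12.8, 14.02, 14.6 and 14.4 TPM in control cauda. The groups lay well apart and the gene fell by 0.64 (adjusted p = 0.0427). Atp6v1h was measured at 11.1, 10.6, 12.9 and 15.8 TPM in cKO cauda, against 19.3, 19.02, 19.1 and 22.96 TPM in control cauda, and fell by 0.65 (adjusted p = 0.0422), again without overlap. After median-of-ratios scaling none of the 4 stayed called (adjusted p 0.104 to 0.159), the list median was -0.07 instead of -0.24, and 10 of the 20 differences were positive.

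**Figure D4:**
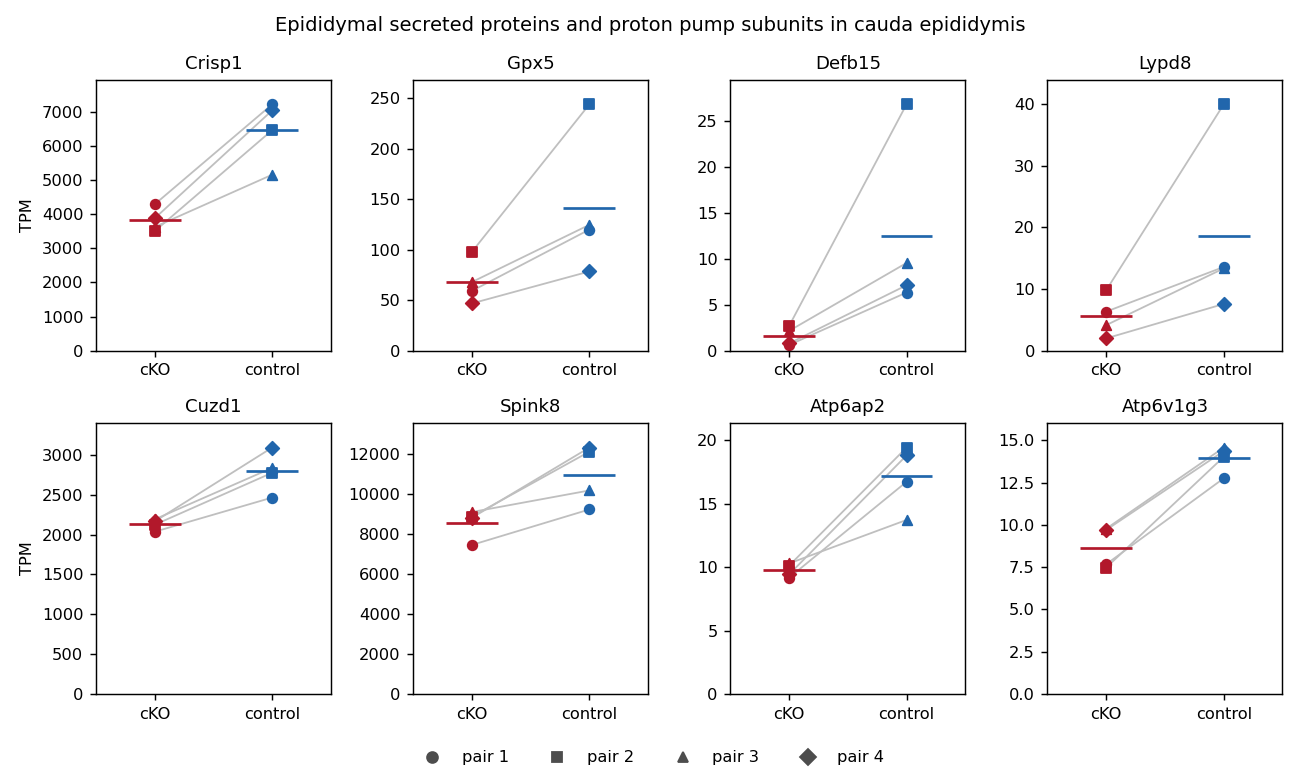
TPM (linear axis from 0) in each cauda library for Crisp1, Gpx5, Defb15, Lypd8, Cuzd1, Spink8 and the proton pump subunits Atp6ap2 and Atp6v1g3, cKO left and control right, with grey lines joining equal-numbered libraries and bars at the means. Crisp1, Defb15, Cuzd1, Spink8, Atp6ap2 and Atp6v1g3 show no overlap between the groups; Gpx5 and Lypd8 overlap and are lower in cKO in all 4 pairs.

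Among miRNA genes, the host transcript of let-7b and let-7c-2, Mirlet7bhg (chr15:85703773-85707524, GRCm38.p6, listed by RefSeq as Lncppara), was higher in cKO. The mature miRNAs it carries are shown with the seed, bases 2 to 8, in capitals (RefSeq, GRCm38.p6, plus strand); they share the seed.
mmu-let-7b-5p, chr15:85707325-85707346: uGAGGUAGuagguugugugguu
mmu-let-7c-5p, chr15:85706616-85706637: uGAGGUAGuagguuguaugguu
Mirlet7bhg was measured at 9.44, 4.69, 10.9 and 9.01 TPM in cKO cauda, against 2.60, 3.74, 3.57 and 3.82 TPM in control cauda. All 4 cKO libraries lay above all controls, with cKO 2 close to them, and Mirlet7bhg rose by 1.06 with the block (SE 0.207; limma adjusted p = 0.0478, and 0.323 without the block); after scaling the adjusted p was 0.0834. In caput it was listed at 9.67, 28.3 and 29.3 TPM in cKO, against 5.04, 0 and 5.62 TPM in control. Of 14 miRNA host transcripts and miRNA genes in the table, 6 were kept, and Mirlet7bhg was the only call among them. Mir6236 had the largest difference of the 6 (2.93, SE 1.39) and was not called. It was measured at 67.7, 22.6, 64.2 and 27.6 TPM in cKO cauda, against 0, 26.3, 31.6 and 0 TPM in control cauda. In caput it was at 0, 8.64 and 0 TPM in cKO, against 73.8, 99.3 and 65.8 TPM in control, the opposite direction.

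The miRNA machinery gave 1 call, Ddx5. Of 22 such genes in the table, Dgcr8 included, 15 were kept, 14 with a negative difference (median -0.25; -0.11 after scaling, against a median of all genes of -0.15 and -0.0003). Ddx5, an RNA helicase that joins Drosha, was measured at 51.5, 29.2, 37.9 and 59.6 TPM in cKO cauda, against 73.1, 45.1, 58.7 and 87.4 TPM in control cauda. The groups overlapped, but each cKO library was below its pair, and Ddx5 fell by 0.57 (limma block adjusted p = 0.0351; 0.0965 after scaling and 0.0491 after quantile normalization). Drosha (-0.41, block adjusted p = 0.0882) and Dicer1 (-0.31, block adjusted p = 0.160) were not called. Genes reported as targets of miR-34 and miR-449, miRNAs known from male germ cells, gave 18 kept genes with a median of -0.31 (-0.17 after scaling), and none was called. Of these, Hdac1, a histone deacetylase, differed by -0.38 (limma adjusted p = 0.364, and 0.0605 with the block). Its groups did not overlap, by a narrow margin, as for 7.3% of all genes kept on the lower side.

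Structured noncoding RNAs varied widely between libraries of the same group. Of 14 such genes, 6 were kept, 5 with a positive difference; the median, 1.23 (1.37 after scaling), was the highest of all the lists, and with the block 1 was called higher, Rpph1, and 1 lower, Neat1, neither after scaling. Rpph1 (chr14:50807447-50807771), the RNA of RNase P, was measured at 87.5, 57.9, 196 and 27.02 TPM in cKO cauda, against 26.1, 35.8, 51.5 and 12.5 TPM in control cauda. The groups overlapped, and Rpph1 rose by 1.34 with the block (limma adjusted p = 0.0448; 0.0773 after scaling). In caput it was at 34.0, 41.6 and 50.2 TPM in cKO, against 186, 126 and 206 TPM in control, the opposite direction with no overlap, and the difference between the segments was 3.34 (SE 0.803; adjusted p = 0.0792, and 0.0026 with the block). Rn45s, the ribosomal RNA precursor, was measured at 2120, 317, 1320 and 120 TPM in cKO cauda, against 275, 301, 205 and 169 TPM in control cauda, with cKO 1 and cKO 3 high and cKO 4 lowest of all. The whole list summed to 2493, 473, 1708 and 227 TPM in cKO cauda, against 408, 419, 364 and 315 TPM in control cauda. In caput it summed to 497, 429 and 572 TPM in cKO, against 1731, 707 and 2430.5 TPM in control, with no overlap. The libraries were made from polyA RNA per the labels. Rpph1 and Rn45s are not typical polyadenylated RNAs, nor are Snord17, a small nucleolar RNA, and Rn4.5s, both among the largest called increases. The part of the selection step in their values was not tested. Reads of Rn45s, Rn4.5s, Spag11b and ribosomal protein genes can be split with near-identical copies, so their values are uncertain. Neat1, a nuclear long noncoding RNA, fell by 0.66 with the block (adjusted p = 0.0468; 0.107 after scaling).

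Muscle and proliferation markers moved with single libraries, while the fibroblast list kept a negative median whichever pair was left out. Skeletal and cremaster muscle genes, from muscle around the tract, had 11 of 11 kept differences positive (median 0.58), but the sum was 548, 363, 473 and 1818 TPM in cKO cauda, against 411, 324, 461 and 444 TPM in control cauda, with cKO 4 far above the rest; the median was 0.17 without pair 4, and none of the genes was called. Fibroblast and matrix genes had 30 of 31 differences negative (median -0.49; -0.33 after scaling) and sums of 1464, 932, 1010 and 2015 TPM in cKO cauda, against 1125, 1225, 1510 and 3243 TPM in control cauda, with control 4 highest and none called. The fibroblast median was -0.67, -0.52, -0.43 and -0.40 without pairs 1, 2, 3 and 4 in turn, against -0.19, -0.15, -0.11 and -0.13 for all genes kept. Proliferation genes summed to 103, 108, 106 and 151 TPM in cKO cauda, against 102, 94.0, 142 and 343 TPM in control cauda; their median was -0.41, and -0.12 without pair 4. The endothelial genes Plvap, which forms the diaphragms of capillary pores, and Ackr1, a chemokine receptor of venules, were called lower. Plvap was measured at 3.15, 2.83, 1.57 and 4.8 TPM in cKO cauda, against 5.87, 8.38, 3.68 and 12.96 TPM in control cauda, and fell by 1.04 (limma block adjusted p = 0.0315; 0.0433 after scaling). Ackr1 fell by 1.21 (adjusted p = 0.0451; 0.0994 after scaling). The list of endothelial and pericyte genes does not hold Ackr1; of its 17 kept members, Plvap was the only call. Macrophage genes gave 24 kept with a median of -0.10 and none called, and smooth muscle genes 25 kept with a median of -0.05 and 1 called lower, Casq2 (-0.62, adjusted p = 0.0461; 0.119 after scaling).

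Housekeeping groups lay near 0 as deposited, above the median of all genes, and stress groups lay near or below it. Of 78 kept cytosolic ribosomal protein genes, 47 differences were positive and the median was 0.03. In all 4 pairs, 22 were higher and 15 lower in cKO, against 4.72% and 31.7% of all genes kept. After scaling 72 differences were positive. Against that, Rpl4 (-0.51), Rpl5 (-0.46) and Rps3a1 (-0.35) were called lower (limma block adjusted p 0.0425, 0.0437 and 0.0442) and not after scaling. Nuclear genes of oxidative phosphorylation gave 73 kept, a median of 0.01 and no call. All 16 kept genes of the p53 response had negative differences as deposited, 7 of them positive after scaling; Perp, a desmosome gene (-0.47, adjusted p = 0.0442), and Ccng1, cyclin G1 (-0.71, adjusted p = 0.0425), were called lower and not after scaling. Ccng1 was measured at 5.51, 3.40, 4.47 and 6.45 TPM in cKO cauda, against 8.73, 5.76, 7.75 and 13.6 TPM in control cauda, lower in each pair with an overlap. The chaperones Hsp90aa1 (-0.62, adjusted p = 0.0442) and Hsp90b1 (-0.59, adjusted p = 0.0425) were called lower among 29 kept heat shock genes, neither after scaling. Of 27 kept interferon genes 24 differences were negative, and Isg15 and Ifi27l2a were called lower, not after scaling. Isg15, a ubiquitin-like interferon product, was measured at 15.3, 39.3, 16.5 and 20.03 TPM in cKO cauda, against 20.8, 90.3, 30.1 and 30.6 TPM in control cauda. Pair 2 had the higher level in both groups, and Isg15 fell by 0.75 (adjusted p = 0.0425).

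**Figure D5:**
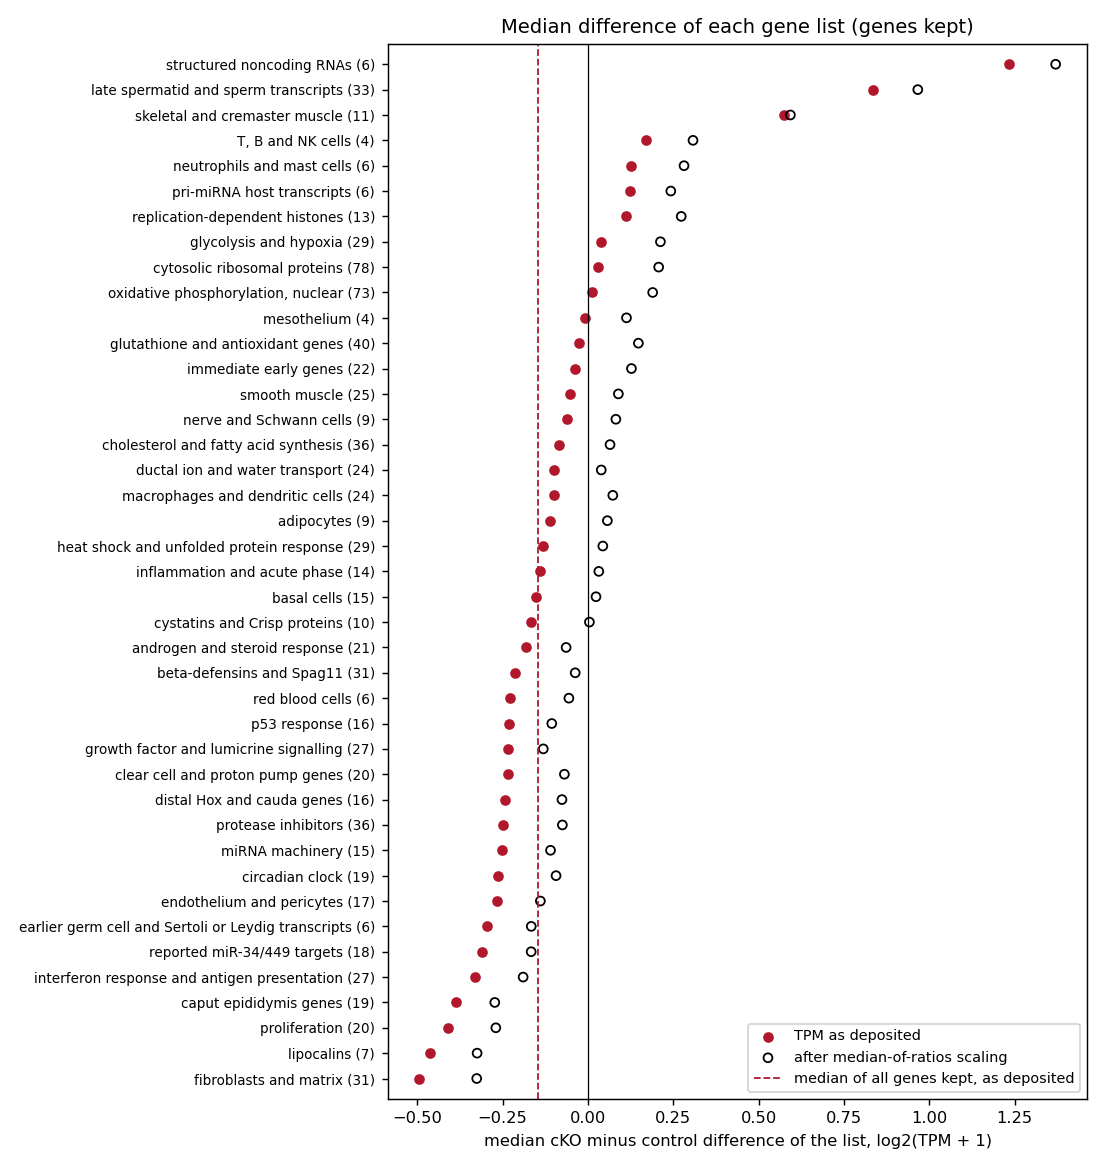
Median cKO minus control difference of each gene list on the log2(TPM + 1) scale, number of kept genes in brackets, for TPM as deposited (filled) and after median-of-ratios scaling (open); the dashed line is the median of all genes kept as deposited, -0.15. Structured noncoding RNAs stand at 1.23 and 1.37, late spermatid transcripts at 0.84 and 0.97, skeletal muscle genes at 0.58 and 0.59, and fibroblast genes lowest as deposited at -0.49 (-0.33 after scaling); the other lists lie between -0.46 and 0.17 as deposited.

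The last question was whether the genotype difference in cauda differed from that in caput. Over 14 libraries and 12993 genes, limma called 0 genes (0%) for the difference of differences, with 3283 at an unadjusted p under 0.05. With the replicate block 2705 genes were called (20.8%), 48 higher (0.369%) and 2657 lower (20.4%) in cauda; the median was -0.36, and after median-of-ratios scaling the block called 1473, 770 higher and 703 lower, so the split of the calls by direction depended on the scaling. The genes of smallest p without the block were Stx7, a syntaxin (-1.32, SE 0.214), Tm9sf2 (-1.37), Eif3m, a translation initiation subunit (-1.68), and Apool (-2.37). Each had a limma adjusted p of 0.0792 in that fit. With the block the adjusted p was 0.00287, 0.00288, 0.0026 and 0.0026 in that order, so the blocked fit called each of them. All of these genes were lower in cauda cKO and higher in caput cKO, with no overlap in either segment. Cuzd1 also moved in opposite directions. In caput it was measured at 771, 780 and 907 TPM in cKO, against 748, 563 and 508 TPM in control, higher with no overlap. In cauda it was lower with no overlap. The difference was -0.84 (SE 0.170; adjusted p = 0.0792, and 0.0104 with the block).

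Genes near the floxed locus were counted because the groups differ by design in that allele. Within 2 Mb of Dgcr8 49 genes were kept and 0 called with the block, within 10 Mb 129 were kept with 1 called higher and 2 lower (2.33%), and within 20 Mb 228 were kept with 2 called in each direction (1.75%), against 2.54% of the 11485 kept genes with a position. The calls within 10 Mb were Ifitm7, 4.27 Mb away (1.11, limma block adjusted p = 0.0351), Eif4a2, a translation initiation helicase 4.82 Mb away (-0.43, adjusted p = 0.0496), and Rtp4, an interferon-induced gene 5.23 Mb away (-0.96, adjusted p = 0.0377). Prm1, Prm2 and Tnp2 lie 7.46 to 7.47 Mb from Dgcr8, while Tnp1 and Gsg1 are on chromosomes 1 and 6.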

How the data were processed

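PolyA RNA of cauda epididymis was made into libraries with a stranded Illumina mRNA kit, per the labels' protocols. The authors deposited TPM (a normalised transcript abundance) for 23845 genes, computed with RSEM per the submitters' processing notes on genome build mm10 per the labels; the version of RSEM is not given in the sources used here. All columns sum to the same total within rounding, so TPM keeps no depth and precision is read from the spread between libraries only.

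Here log2(TPM + 1) was compared with limma 3.58.1 (R 4.3.3; trend and robust options), two-sided, on genes with at least 1 TPM in at least 4 of 8 libraries, with Benjamini-Hochberg adjustment over 11527 genes and a threshold of 0.05. Without a block no pairing is assumed; the second fit adds the number in the labels as a block. Deviations from group means correlated at 0.42, 0.34, 0.42 and 0.49 between equal-numbered cauda libraries and at -0.40 to 0.21 between others, so the numbers were taken to pair the libraries; the check comes from the data, since the labels do not say what a number marks. The difference between segments was an interaction term over 14 libraries (at least 1 TPM in at least 3, 12993 genes). Its blocked fit also paired the caput libraries by number. There the deviations correlated at 0.43, 0.20 and 0.22 between equal-numbered libraries and at -0.30 to 0.045 between others.

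Genes named are Dgcr8 and machinery genes, the 8 largest called in each direction with the block, up to 6 of smallest p in each direction, called members and the most abundant members of lists, the 4 of smallest p in the interaction, and called genes within 10 Mb of Dgcr8. Other named genes, mainly further members of the lists, were chosen after their values were seen. The members and gene lists were chosen with earlier results of these data known. Promoters, miRNAs and positions come from the RefSeq tables of GRCm38.p6, the assembly of mm10. Alternatives were other pseudocounts, filters, scalings, variance models and libraries left out; those that combine the block with another setting were chosen after seeing the data.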

Additional observations from a re-analysis of the deposited data

Results flagged for a closer look

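Of 80 groups of 4 libraries checked for a library far from the others, 8 had one. The cutoff's rate of about 1 in 20 assumes independent normal values. The values checked were raw TPM, and some genes were chosen after their values were seen. The count therefore cannot be read as an excess over that rate. Control 2 had the high value for Defb15 (26.8 TPM) and Isg15 (90.3 TPM), and control 4 for Atp6v1h (22.96 TPM). In cKO, library 4 was high for Defb30 (1.92 TPM), Rnase9 (62.2 TPM), the summed skeletal muscle genes (1818 TPM) and the summed proliferation genes (151 TPM), and library 1 was high for Cst11 (0.74 TPM, the others listed at 0).

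The genotype difference went opposite ways in the segments for several named genes, among them Cuzd1, Rpph1 and Ccng1. Perp, Stx7, Tm9sf2, Eif3m and Apool were also lower in cauda cKO and higher in caput cKO, with no overlap in either segment. The pattern was wider than the named genes. Of the 251 genes called lower in cauda, 83 (33.1%) were higher in caput cKO with no overlap. For Cuzd1 every cKO library was lower than every control in cauda and higher in caput (cauda minus caput -0.84; limma adjusted p = 0.0792, and 0.0104 with the replicate block). For Rpph1 cauda cKO was higher and caput cKO lower (3.34; adjusted p = 0.0792, and 0.0026 with the block). For Ccng1 cauda cKO was lower and caput cKO higher (-1.87; adjusted p = 0.0935, and 0.00712 with the block), with 1 caput control listed at 0.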

How the results depend on the processing

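The count of calls depended on the replicate block. Without it the count of 0 held under each planned setting run on all libraries, and leaving out each library in turn gave 0 to 1 calls. With the replicate block it was 295; the block gave 270 with a pseudocount of 0.1, 312 with 0.5, 539 with a filter at 5 TPM, 0 with no filter, 38 after median-of-ratios scaling (31 higher, 7 lower), 28 after quantile normalization (19 higher, 9 lower) and 8 without the trend and robust options. Leaving out each pair in turn with the block gave 0 to 501 calls, 0 of them without pair 1. The difference between cauda and caput gave 0 calls, 1 after quantile normalization, 2705 with the replicate block, 1473 with the block and median-of-ratios scaling, and 0 to 992 with each library left out in turn, of which 713 without caput cKO 2 and 992 without caput control 1. The causes were not tested. The Dgcr8 difference stayed negative and uncalled in each setting run (-0.77 with a pseudocount of 0.1 to -0.30 after quantile normalization; -0.63 to -0.37 with libraries left out). Among the named genes, Ces5a turned to 0.0055 after median-of-ratios scaling with or without the block, and the gene Odf1 to -0.0586 without control 4 and -0.0563 without pair 4 (up to 0.4291 over the libraries left out); the other named genes kept their direction in the settings run. Depth cannot be recovered from TPM, so low genes such as Defb45 and Cst11, with listed values of 0, carry an unknown counting error.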

Other observations

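Rnase9, a secreted ribonuclease of the epididymis, was measured at 15.03, 11.6, 15.4 and 62.2 TPM in cKO cauda, against 30.8, 25.1, 50.1 and 85.6 TPM in control cauda; pair 4 was highest in both groups, and the gene fell by 1.03 with the replicate block (limma adjusted p = 0.0442; 0.104 after median-of-ratios scaling). Cholesterol and fatty acid synthesis genes gave 36 kept with 15 positive differences and none called (median -0.08; 0.06 after scaling). Atp1b1, a subunit of the sodium pump, was called lower among 24 kept genes of ductal ion and water transport (-0.70, limma block adjusted p = 0.0425; 0.0834 after scaling), beside Aqp9.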
